A study of Mus musculus with 458 samples.

Results

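The genes described here encode proteins of the splicing machinery in donor-derived haematopoietic stem cells (HSCs). They are the 52 of 22645 gene symbols in the expression table whose names begin with Srsf, Hnrnp, Snrp, Sf3a, Sf3b or U2af followed by a member's number or letters. They fall into 11 SR protein genes, 18 hnRNP genes, 12 Sm and snRNP protein genes, and 11 genes of the SF3 and U2AF complexes. The choice rests on names alone, with no measured value in it. Genes kept under older symbols that the pattern misses, such as Hnrpll and Hnrpdl, are not counted among them.

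Introns are removed from pre-mRNA by the spliceosome, which is assembled from small nuclear ribonucleoprotein particles (snRNPs). Each snRNP holds a small nuclear RNA around which Sm proteins close a ring, and the U1 and U2 particles carry further proteins that recognise the 5' splice site and the branch point. U2AF binds the 3' splice site and brings in the U2 particle, whose SF3A and SF3B complexes hold the branch point. SR proteins bind exons and mostly favour their inclusion, while many hnRNPs bind pre-mRNA and often act against it. In the blood system SRSF2, SF3B1 and U2AF1 are recurrently mutated in myelodysplastic syndromes, which arise from HSCs.

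Single HSCs positive for Vwf, the gene of von Willebrand factor, had been transplanted into C57BL/6 mice, and reconstitution was followed over 16 weeks. Recipients were multilineage (MUL, deposited status Balanced), restricted to platelets, erythroid and myeloid cells (PEM, status P_E_M_biased) or restricted to platelets (PLT, status Plt_biased), with 2 mice of each type. The cells sequenced were bone marrow cells of the phenotype LSK CD150+CD48-CD45.2+, in which CD45.2 marks the donor, sorted with 1 cell per well. All 3 groups thus share the strain, the Vwf+ origin of the transplanted cell, the transplantation and the gate, and the cells of a mouse descend from 1 transplanted cell. MUL mouse 1 gave 78 cells and MUL mouse 2 gave 85. PEM mouse 1 gave 93 cells and PEM mouse 2 gave 25, and the PLT pair gave 93 and 84.

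Depth per cell lay between 1.3 and 17.26 M mapped reads (median 4.9 M over the 458 cells). Median numbers of detected genes, as counted by the authors, were 2210 and 2553 in the MUL pair, 3186 and 2752 in the PEM pair, and 1869 and 2596 in the PLT pair. Of the genes behind the gate, Cd48 reached 1 RPKM in 0% to 2.15% of a mouse's cells, Kit in 34.4% to 75.3% and Ly6a, the gene of Sca-1, in 38.7% to 86.0%. Slamf1, the gene of CD150, reached it in 4.71% to 37.6%. The first part of a cell's title was taken as its experiment, which no label states. On that reading both MUL mice belonged to 1 experiment and the other 4 to separate ones, so experiment and group cannot be told apart. RPKM counts reads per kilobase of gene length relative to the sequencing depth of the cell, and a level below is the mean RPKM over the cells of a mouse. A higher mean can reflect more cells with the transcript or more transcript per cell. The share of cells at 1 RPKM or more is therefore given for each class and for some of the genes.

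Summed over a class, levels differed between mice most for the Sm and snRNP genes. Their summed mean RPKM was 1740 and 1542 in the MUL pair, 2429 and 2501 in the PEM pair, and 1627 and 3211 in the PLT pair. The PLT mice thus lay on either side of the PEM pair, and only the PEM mice were both above both MUL mice. The 18 hnRNP genes summed to values between 2173 and 2560 in every mouse. SF3 and U2AF genes summed to 579 to 729. SR genes summed to 2321 and 2032 in the MUL pair, 1576 and 1527 in the PEM pair, and 2854 and 2265 in the PLT pair, and Srsf2 was the largest term of the sum in every mouse.

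**Figure D1:**
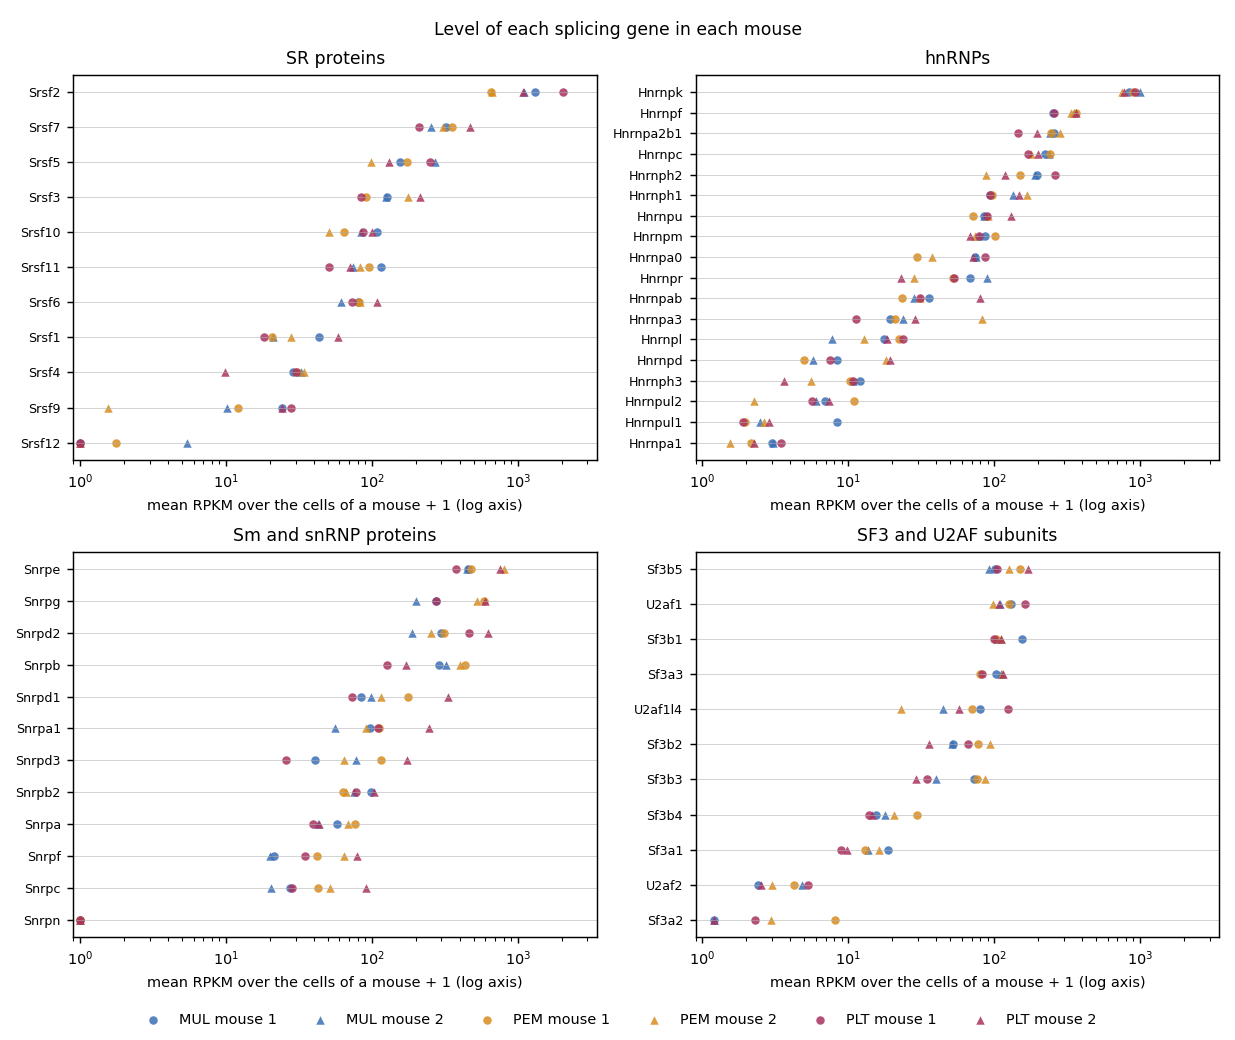
Each row is 1 gene and each point the mean RPKM over the cells of 1 mouse plus 1, on a log axis, with colour for the group and shape for the mouse. Srsf2 and Hnrnpk were the highest genes of the plot, and rows of every class range from tight (Hnrnpk, Sf3a3) to wide (Hnrnpul1, Sf3a2, Snrpd3).

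Shares of cells differed widely within the PLT group for the SR, hnRNP and Sm classes. The median share of cells at 1 RPKM or more over the SR genes was 53.8% and 50.6% in the MUL pair, 66.7% and 56% in the PEM pair, and 31.2% and 69.0% in the PLT pair. Over the hnRNP genes it was 42.9% and 50.6%, then 54.8% and 50%, then 39.2% and 59.5%. Over the Sm and snRNP genes it ran from 24.7% in PLT mouse 1 to 73.8% in PLT mouse 2, with 34.0% and 31.2% in the MUL pair and 59.7% and 46% in the PEM pair. For the SF3 and U2AF genes the medians were closer together, at 32.1% and 34.1%, 43.0% and 40%, and 25.8% and 29.8%. PLT mouse 1 held the lowest share of all mice for 35 of the 52 genes. The highest share was in PLT mouse 2 for 24 genes and in PEM mouse 1 for 18. Tied mice were all counted, as for Srsf2, at 100% in several mice, and Srsf12, at 0% in several. The median over all 52 genes was 37.8% and 40% in the MUL pair and 58.1% and 46% in the PEM pair. In the PLT pair it was 26.9% and 59.5%. With the share of each gene averaged within a pair first, the medians were 38.6% for MUL, 50.2% for PEM and 41.8% for PLT. The PLT mice thus differed from each other by more than the groups did.

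**Figure D2:**
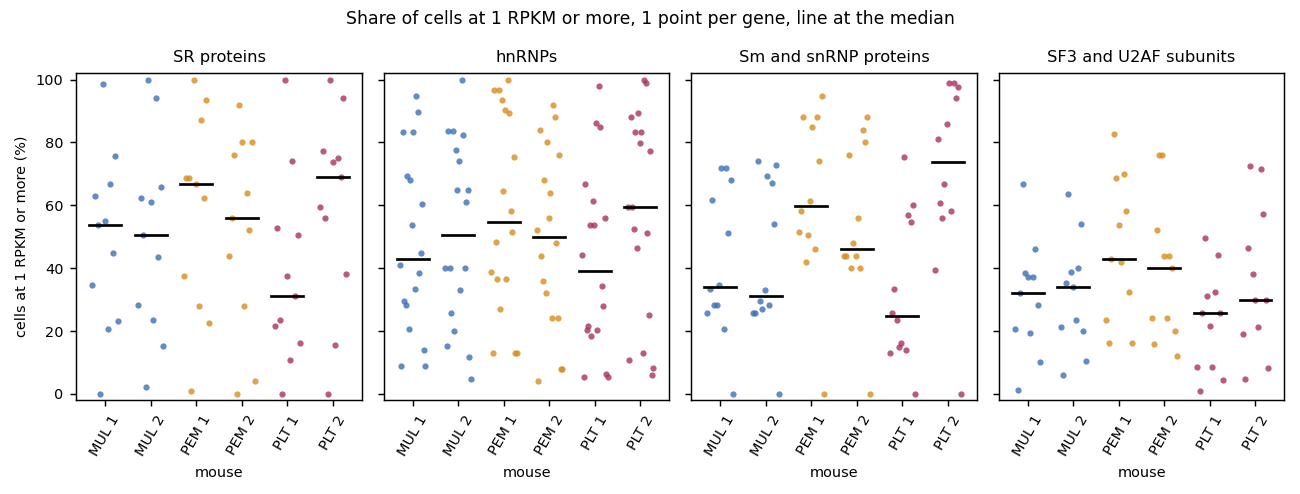
Each point is 1 gene, placed at the percent of a mouse's cells in which it reached 1 RPKM, and the line is the median of the class. The 2 PLT mice are at the bottom and the top of the SR, hnRNP and Sm panels, with Sm medians of 24.7% and 73.8%. In the SF3/U2AF panel alone both PLT medians (25.8% and 29.8%) are below both MUL medians.

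Srsf2 was the most abundant SR gene and among the few splicing genes found in nearly every cell. It encodes an SR protein that binds exonic enhancers. It lies on the minus strand of chromosome 11 (mm10 coordinates 116849901 to 116853094), where its exons share 748 bases with exons of Mettl23 and Mfsd11 on the other strand. Whether reads were counted by strand is not given in the sources used here, so reads of those genes cannot be told apart from its own. Its level was 1324 and 1102 RPKM in the MUL pair, 659 and 669 in the PEM pair, and 2031 and 1084 in the PLT pair, and 92% to 100% of the cells of each mouse were at 1 RPKM or more. Both PEM mice lay below the other 4 mice. The log2 fold change of PEM minus MUL was -0.86 ± 0.34 (SE; limma, p = 0.0329, adjusted p = 0.868) and that of PLT minus PEM was 1.16 ± 0.34 (limma, p = 0.00842, adjusted p = 0.545). Neither passed adjustment over all genes tested. Among cells with 1800 to 3000 detected genes the PEM means were 727 and 910 RPKM, still under the 1075 to 1812 of the other mice.

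Hnrnpa0, which encodes an hnRNP of the A/B family that binds AU-rich elements, had the same order of groups. Its gene lies on the minus strand of chromosome 13 (mm10, 58125879 to 58128556), with no exon overlap with another gene. The upstream stretches of Srsf2 and Hnrnpa0 are shown as examples, without that of Srsf10, which was also lowest in the PEM pair. They are RefSeq sequence of build GRCm38.p6, written 5' to 3' up to the base before the gene's start, free of exons of any annotated gene, with capitals on matches to the motifs searched.

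Srsf2, chr11:116853095-116853294, minus strand: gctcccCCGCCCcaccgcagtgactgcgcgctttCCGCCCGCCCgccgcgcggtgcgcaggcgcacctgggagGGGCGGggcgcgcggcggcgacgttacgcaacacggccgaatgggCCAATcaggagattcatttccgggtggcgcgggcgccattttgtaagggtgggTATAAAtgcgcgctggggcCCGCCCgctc

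Hnrnpa0, chr13:58128557-58128806, minus strand: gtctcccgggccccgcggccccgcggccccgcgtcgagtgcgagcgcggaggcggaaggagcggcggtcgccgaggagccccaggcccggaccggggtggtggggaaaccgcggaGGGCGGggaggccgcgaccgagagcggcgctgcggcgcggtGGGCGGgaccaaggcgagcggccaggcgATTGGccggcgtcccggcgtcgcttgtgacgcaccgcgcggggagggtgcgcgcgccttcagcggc

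Both stretches hold SP1 GC boxes (GGGCGG) and a CCAAT element on either strand, and the Srsf2 stretch also holds TATAAA near the start. Their GC content was 72.5% and 81.2%. Over the whole 300-base windows of RefSeq, 46 of the 52 genes had an entry, and 32 of them (69.6%) held a GC box on either strand, against 38.2% of the 27025 genes in the table. The ETS core CCGGAAG was found in 15 of the 46 (32.6%) against 9.93% of all genes, and CCAAT in 24 (52.2%) against 41.1%. TATAAA was held by 7 (15.2%) against 15.7%. The NRF1 motif was in 1 (2.17%, against 1.07%) and the YY1 motif AAGATGGC in 2 (4.35%, against 3.19%). Neighbouring GC boxes may overlap, as in the Srsf2 stretch. A match describes letters in a window and no binding was measured.

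Among the other SR genes, Srsf7 was second in level. It encodes an SR protein that also acts in mRNA export, and its level was 320 and 253 RPKM in the MUL pair, 353 and 306 in the PEM pair, and 210 and 473 in the PLT pair. The PLT mice enclosed all others, and the share of cells was lowest in PLT mouse 1 (50.5%) and highest in PLT mouse 2 (94.0%). Srsf3, the smallest SR protein, and Srsf1, the founding SR protein, had the same spread within the PLT pair. Srsf3 stood at 125 and 124 RPKM in the MUL pair, 89.96 and 177 in the PEM pair, and 84.0 and 212 in the PLT pair. Srsf1 stood at 42.8 and 20.0, 19.7 and 27, and 17.2 and 57.4 RPKM. The PLT minus MUL log2 fold changes were 0.10 ± 0.52 for Srsf3 and 0.10 ± 0.68 for Srsf1, smaller than their standard errors.

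Srsf10, whose product represses splicing when dephosphorylated, shared the low PEM levels of Srsf2. It stood at 63.7 and 50.3 RPKM in the PEM pair, 108 and 83.1 in the MUL pair, and 85.8 and 100.1 in the PLT pair. The PEM minus MUL log2 fold change was -0.74 ± 0.38 (limma adjusted p = 0.868). Its share of cells at 1 RPKM or more did not have this order, at 68.8% and 56% in the PEM pair. That share was 62.8% and 62.4% in the MUL pair and 52.7% and 77.4% in the PLT pair. Srsf11, an SR-related factor, was lower in both PLT mice (49.7 and 69.6 RPKM) than in the MUL pair (114 and 72.9) and the PEM pair (94.7 and 82.6). Srsf4, another classical SR gene, differed mainly in 1 mouse, at 8.82 RPKM in PLT mouse 2 against 28.0 to 33.1 in the other 5. Srsf9 stood at 23.3 and 9.21 RPKM in the MUL pair, 11.1 and 0.544 in the PEM pair, and 27 and 23.3 in the PLT pair. Its PLT minus PEM log2 fold change was 2.59 ± 0.998 (limma, p = 0.0308, adjusted p = 0.573), but only 1 of 25 cells of PEM mouse 2 reached 1 RPKM and the 5 highest cells of MUL mouse 1 held 81.0% of its summed RPKM. Srsf5 and Srsf6 overlapped between groups except that both PEM mice had more Srsf6 (81.0 and 82.3 RPKM) than the MUL pair (79.3 and 60.5). Srsf12 reached 1 RPKM in 2 cells of MUL mouse 2 and 1 cell of PEM mouse 1, and did not pass the filter for testing.

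The hnRNP genes had a steady sum, but single genes differed between the highest and the lowest mouse by 1.34 times (Hnrnpk) to 8.31 times (Hnrnpul1, at 0.891 to 7.41 RPKM). Hnrnpk, whose product binds C-rich RNA and DNA, was the highest, at 835 and 1006 RPKM in the MUL pair, 887 and 749 in the PEM pair, and 929 and 770 in the PLT pair, in 92% to 100% of cells. Its highest mouse was 1.34 times its lowest. Hnrnpf, a binder of G-rich tracts with 8 near-identical genes in the annotation, ranged from 253 to 363 RPKM and Hnrnpc, which binds U-rich tracts, from 170 to 240. Hnrnpl, a CA-repeat binder, was found in 82.4% to 98.8% of cells although its level was only 6.70 to 22.6 RPKM.

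Hnrnpa0 was the hnRNP gene with the smallest p in both comparisons with the PEM pair. It stood at 72.7 and 73.8 RPKM in the MUL pair, 28.8 and 36.3 in the PEM pair, and 85.3 and 70.2 in the PLT pair. Both PEM mice were below the other 4 (PEM minus MUL log2 fold change -1.15 ± 0.40, limma, p = 0.0191, adjusted p = 0.868; PLT minus PEM 1.23 ± 0.40, p = 0.0141, adjusted p = 0.554). The share of cells at 1 RPKM or more did not have this order: it was 41.0% and 40.0% in the MUL pair, 38.7% and 52% in the PEM pair, and 44.1% and 59.5% in the PLT pair. In PEM mouse 2 the 5 highest cells held 84.9% of its summed RPKM. With 25 cells drawn from each mouse the PEM minus MUL value was -0.38.

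Hnrnpr, whose product takes part in mRNA transport and splicing, was higher in both MUL mice (66.8 and 87.6 RPKM) than in the PEM pair (51.3 and 27.3) and the PLT pair (52.2 and 21.9). The log2 fold change of PLT minus MUL was -1.15 ± 0.56 (limma, p = 0.0706, adjusted p = 0.625). Hnrnpa2b1, a binder of sorting and export motifs, was lower in the PLT pair (144 and 195 RPKM) than in the MUL pair (257 and 242) and the PEM pair (245 and 283), with a PLT minus MUL value of -0.57 ± 0.32 (adjusted p = 0.679). Hnrnpu, a nuclear matrix protein, was 84.6 and 84.5 RPKM in the MUL pair, 70.7 and 90.3 in the PEM pair, and 88.5 and 130 in the PLT pair. Hnrnpa1, which competes with SR proteins for splice site choice, was listed at only 0.533 to 2.47 RPKM, and 9 pseudogenes of at least 95% identity exist in the annotation. The authors' counting could split reads between such copies, so its value is uncertain, as is that of Hnrnpa3 (10.3 to 81.6 RPKM), which has 27 near-identical genes. Hnrpll, which controls Cd45 splicing and lies outside the name pattern, stood at 6.94 and 5.57 RPKM in the MUL pair, 1.68 and 15.2 in the PEM pair, and 0.061 and 7.19 in the PLT pair.

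The Sm genes as a class were higher in the PEM pair than in the MUL pair, without any single gene passing the test. Of the 11 tested Sm and snRNP genes, 10 had a positive PEM minus MUL log2 fold change and the median was 0.55, against -0.039 over all 11337 genes tested. In PLT minus MUL 9 of 11 were positive with a median of 0.77, against -0.18 over all genes. The PLT minus MUL value rested on PLT mouse 2: without it the median was -0.14, and without PLT mouse 1 it was 1.40. Genes with an exon length of up to 2000 bases, as 4 of the 12 Sm and snRNP genes have, had medians of 0.16 in PEM minus MUL and 0.10 in PLT minus MUL. In PLT minus PEM the class median was 0.01.

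**Figure D3:**
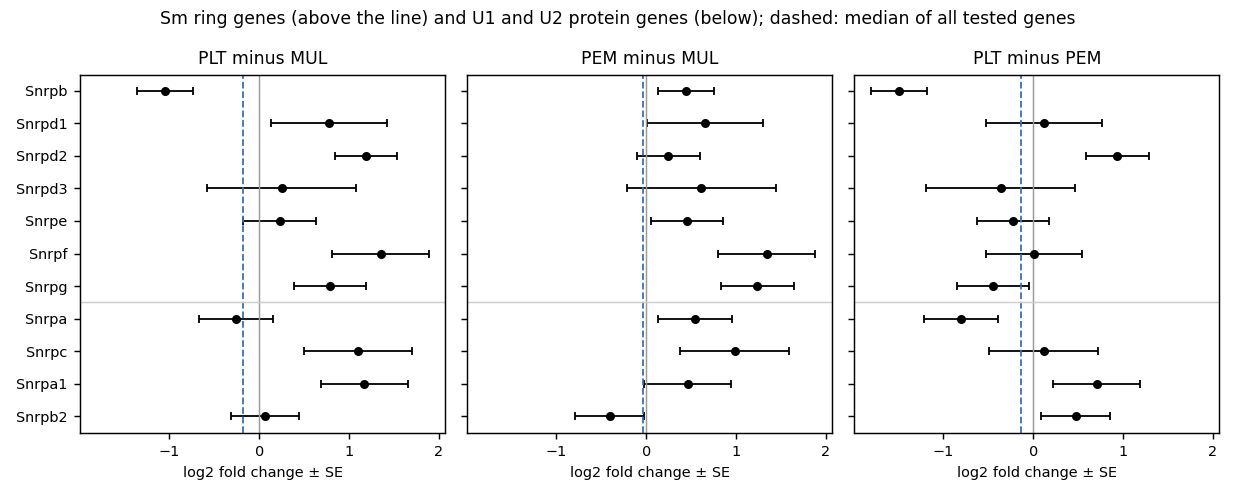
Points are log2 fold changes of log2(mean RPKM + 1) between groups of 2 mice with their standard errors from limma, for the 7 Sm ring genes and 4 proteins of the U1 and U2 particles, and the dashed line is the median of all tested genes. Snrpb is on the left in both panels with the PLT pair, at -1.05 and -1.50, while Snrpd2 is on the right, at 1.19 and 0.94.

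Snrpb and Snrpd2 both encode proteins of the Sm ring, and in the PLT pair they stood on opposite sides of the other mice. Snrpb, the gene of SmB, stood at 289 and 323 RPKM in the MUL pair, 432 and 400 in the PEM pair, and 126 and 171 in the PLT pair. The 3 groups did not overlap, with PEM mice highest and PLT mice lowest. Its share of cells was 61.5% and 74.1% in the MUL pair, 88.2% and 76% in the PEM pair, and 33.3% (95% Clopper-Pearson interval 23.9 to 43.9) and 60.7% (49.5 to 71.2) in the PLT pair. The log2 fold change was -1.05 ± 0.31 in PLT minus MUL (limma, p = 0.00913, adjusted p = 0.480), 0.45 ± 0.31 in PEM minus MUL (adjusted p = 0.905) and -1.50 ± 0.31 in PLT minus PEM (p = 0.0012, adjusted p = 0.539), the smallest p of the 50 tested genes in any comparison. The titles of the cells name a pair of plates for each mouse, and the mean of Snrpb was 111 to 193 RPKM on the PLT plates and 231 to 533 on the others. Within PEM mouse 2 those plates differed in depth, with medians of 3.2 and 12.2 M reads, and gave 533 and 231 RPKM.

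Snrpd2, the gene of SmD2, had its highest levels in the PLT pair, at 466 and 627 RPKM against 298 and 188 in the MUL pair and 312 and 254 in the PEM pair. Both PLT mice lay above the other 4, and their plates at 450 to 659 RPKM lay above the 188 to 357 of the others. The share of cells at 1 RPKM or more was 75.3% and 98.8% in the PLT pair, 71.8% and 69.4% in the MUL pair, and 84.9% and 56% in the PEM pair. The log2 fold change was 1.19 ± 0.35 in PLT minus MUL (limma, p = 0.00851, adjusted p = 0.480) and 0.94 ± 0.35 in PLT minus PEM (p = 0.0258, adjusted p = 0.563). Snrpd2 has 2 pseudogenes of near-identical sequence, while Snrpb has none.

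The products of Snrpf and Snrpg sit beside SmE in the ring. Snrpf was lowest in the MUL pair, and Snrpg was higher in the PEM pair than in the MUL pair. Snrpf stood at 20.4 and 19.0 RPKM in the MUL pair, 41.4 and 63.9 in the PEM pair, and 34.1 and 78.5 in the PLT pair, so that both other groups lay above the MUL pair. Its log2 fold change was 1.34 ± 0.54 in PEM minus MUL (limma, p = 0.0358, adjusted p = 0.868) and 1.35 ± 0.54 in PLT minus MUL (p = 0.0347, adjusted p = 0.564). Snrpf is short, with 861 exonic bases, of which 735 overlap exons of Ccdc38 and 4933408J17Rik on the other strand, so its reads may include theirs. Snrpg stood at 276 and 200 RPKM in the MUL pair, 584 and 529 in the PEM pair, and 276.5 and 599 in the PLT pair. Both PEM mice were above both MUL mice (1.24 ± 0.41, limma, p = 0.015, adjusted p = 0.868). A single cell at 12453 RPKM raised the mean of PEM mouse 1, in which the median cell was at 337 RPKM, and the medians of the MUL pair were 239 and 175. In PLT mouse 1 the median cell was at only 3.36 RPKM. Its share of cells, 60.2%, was under the 67.9% and 72.9% of the MUL pair.

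The remaining ring genes were uneven within the PLT pair. Snrpe, the most abundant of the class, was 458 and 446 RPKM in the MUL pair, 479 and 801 in the PEM pair, and 374 and 750 in the PLT pair. Snrpd1 was 83.0 and 97.2, then 175 and 115, then 71.7 and 331 RPKM. Snrpd3 was 39.7 and 77.2, then 115 and 63.0, then 24.9 and 173 RPKM. For these 3 genes PLT mouse 1 had the lowest level of all mice, and for Snrpd1 and Snrpd3 PLT mouse 2 had the highest.

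Among the proteins of the U1 and U2 particles, Snrpa1, the U2 A' protein, was 95.9 and 54.7 RPKM in the MUL pair, 111 and 90.6 in the PEM pair, and 110 and 246 in the PLT pair (PLT minus MUL 1.17 ± 0.49, limma, p = 0.0412, adjusted p = 0.583). Both PLT mice were above both MUL mice in mean level. The share of cells at 1 RPKM or more was 25.8% in PLT mouse 1 and 81.0% in PLT mouse 2, against 33.3% and 25.9% in the MUL pair. Snrpc, a U1 protein that helps to recognise the 5' splice site, was 26.4 and 19.4, then 41.7 and 50.3, then 27.4 and 89.8 RPKM. Snrpa, the U1 A protein, was higher in the PEM pair (75.6 and 67.5 RPKM) than in the MUL pair (56.8 and 41.6) and the PLT pair (38.7 and 42.6). Its counterpart in U2, Snrpb2, had the reverse order, with 62.6 and 65.8 RPKM in the PEM pair against 97.4 and 74.9 in the MUL pair. Snrpn, which encodes the SmB relative of neurons from an imprinted locus, was listed at 0 in every cell. With 25 to 93 cells in a mouse, a count of 0 allows a share of up to 12% in PEM mouse 2 and 3.23% to 3.85% elsewhere. Its exons share 805 bases with Snurf and Gm38393 on the same strand, and Snurf was also listed at 0 in every cell.

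Among the SF3 and U2AF genes the highest mouse was 1.45 times (Sf3a3) to 36.4 times (Sf3a2, a low gene) the lowest. Sf3b1, the branch point subunit of SF3B, was 155 and 103 RPKM in the MUL pair, 103 and 110 in the PEM pair, and 98.7 and 110 in the PLT pair. The log2 fold changes were -0.28 ± 0.36 in PLT minus MUL and -0.25 ± 0.36 in PEM minus MUL, within their standard errors. U2af1, which reads the AG at the 3' splice site, was 129 and 108, then 126 and 97.7, then 163 and 107 RPKM, with all groups overlapping. Its large partner U2af2, which binds the polypyrimidine tract, was listed at only 1.39 to 4.29 RPKM and in 4.30% to 16.1% of cells. U2af1l4, a relative of U2af1, was 22 to 123 RPKM, but 1086 of its 1656 exonic bases are shared with Gm49396 on the same strand. Sf3b5, the smallest SF3B subunit, was the highest of the class on average, at 100.2 and 91.4 RPKM in the MUL pair, 149 and 125 in the PEM pair, and 103 and 171 in the PLT pair.

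Several SF3 subunits had their highest levels in the PEM pair. Sf3b3, the scaffold of SF3B, was 75.1 and 85.5 RPKM there, 71.6 and 38.7 in the MUL pair, and 33.5 and 28.2 in the PLT pair. The PEM mice lay above the other 4 and the PLT pair below them (PLT minus PEM -1.35 ± 0.45, limma, p = 0.0169, adjusted p = 0.561). Sf3b2 was 76.8 and 92.1 RPKM in the PEM pair against 51.1 and 50.6 in the MUL pair, and 65.3 and 34.5 in the PLT pair. Sf3b4 was 28.4 and 19.6 RPKM in the PEM pair and 13 to 17 in the other 4. Sf3a2 was 7.07 and 1.96 RPKM in the PEM pair, 0.206 in each MUL mouse, and 1.3 and 0.194 in the PLT pair. At these low levels the log2(mean RPKM + 1) scale understates folds, and Sf3a2 reached 1 RPKM in at most 16.1% of the cells of a mouse. A single cell at 523 RPKM raised its mean in PEM mouse 1. The 5 highest cells held 95.3% and 99.0% of its summed RPKM in the PEM pair, and 80.8% to 100% in the other mice. Sf3a1 was lower in both PLT mice (7.90 and 8.86 RPKM) than in the MUL pair (17.7 and 12.7) and the PEM pair (11.99 and 15.2).

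In the test over all genes, 50 of the 52 genes passed the filter of 1 RPKM in at least 2 mice, and Srsf12 and Snrpn did not. None of the 50 was called at an adjusted p of 0.05 by limma in any comparison. Of all 11337 genes, 0.00882% were called in PLT minus MUL, which is 1 gene, 0% in PEM minus MUL and 0% in PLT minus PEM. At an unadjusted p under 0.05, PLT minus MUL had 3 splicing genes higher and 1 lower, where 2.44% of all genes were higher and 5.96% lower. PEM minus MUL had 3 higher and 2 lower, against 2.8% and 2.79% of all genes. PLT minus PEM had 4 higher and 2 lower, against 2.49% and 5.88%. With 2 mice a group the smallest p of an exact permutation test is 0.33 (two-sided), so shares of cells and sums carry no test.

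Groups that did not overlap were counted as a description. In PLT minus MUL 8 of the 50 genes were higher and 9 lower in both mice, where 14.8% and 24.9% of all genes were. In PEM minus MUL 13 were higher and 8 lower, against 17.5% and 18.3% of all genes, and 7 of the 13 were Sm or snRNP genes. In PLT minus PEM 7 were higher and 10 lower, against 14.1% and 21.9%, and 5 of the 10 were SF3 or U2AF genes. Over the 50 genes, the median log2 fold change was 0.07 in PLT minus MUL, 0.07 in PEM minus MUL and 0.03 in PLT minus PEM, with 27 positive in each. The median log2 fold changes of the SR genes were 0.10 in PLT minus MUL, -0.19 in PEM minus MUL and 0.27 in PLT minus PEM. Those of the hnRNP genes were -0.11, -0.16 and 0.042, and those of the SF3 and U2AF genes were -0.095, 0.074 and -0.035. The median of all tested genes was itself -0.18, -0.039 and -0.13, and after median-ratio scaling it was -0.037, -0.017 and -0.0087. The Sm and snRNP medians under median-ratio scaling were 0.94, 0.57 and 0.15, and under quantile normalization 0.53, 0.55 and -0.0016. The SR median in PLT minus MUL changed sign under quantile normalization, to -0.040. The hnRNP and SF3/U2AF medians in PLT minus MUL were positive under median-ratio scaling, at 0.045 and 0.070, and the SF3/U2AF median also under quantile normalization, at 0.053.

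Within a mouse, the number of splicing genes at 1 RPKM or more in a cell moved with the number of all genes detected. A median cell held 21 and 23 of the 52 genes in the MUL pair, 29 and 26 in the PEM pair, and 17 and 29 in the PLT pair. Across the 25 to 93 cells of a mouse, Pearson's r between this number and the authors' count of detected genes was 0.85 to 0.911. Both numbers come from the same library of a cell, and the authors' count includes the splicing genes. Depth was not held constant, and the plates of PEM mouse 2 had medians of 3.2 and 12.2 M reads. Among cells with 1800 to 3000 detected genes the medians were 22, 21, 23, 23, 19 and 27 in the same order of mice. Most of the distance between the MUL and PEM mice was absent in these cells, while PLT mouse 2 stayed highest and PLT mouse 1 lowest. The range did not make detected genes equal. Their medians in it were 2262 and 2369 in the MUL pair, 2623 and 2667 in the PEM pair, and 1993 and 2460 in the PLT pair. It kept 36 of 93 and 11 of 25 cells in the PEM pair. For the 12 Sm and snRNP genes, the mean number per cell in this range was 5.13 and 4.45 in the MUL pair, 5.89 and 5.64 in the PEM pair, and 4.24 and 7.77 in the PLT pair. Their summed RPKM in the same cells was 1677 and 1498, 2485 and 2349, and 1573 and 3101, with both PEM mice above both MUL mice and PLT mouse 2 highest, as over all cells.

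**Figure D4:**
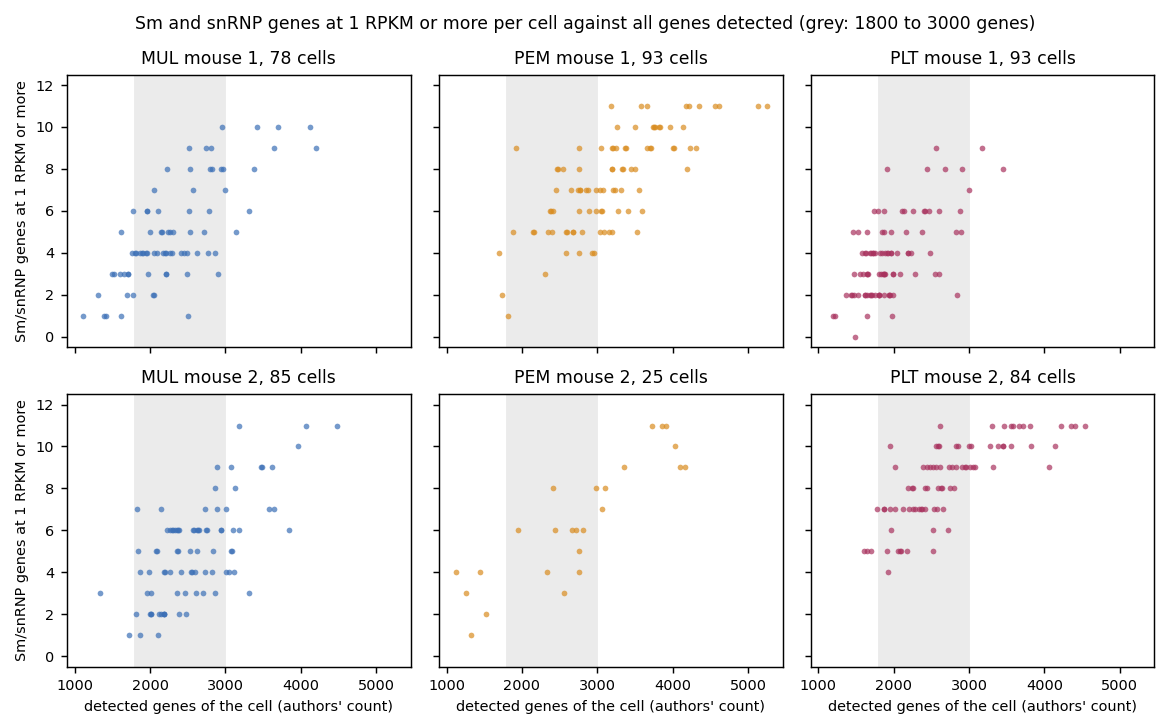
Each point is 1 cell, placed by its count of detected genes (authors' count) and by how many of the 12 Sm and snRNP genes reached 1 RPKM, with cells of 1800 to 3000 genes in the grey band. In the band PLT mouse 2 lies highest, with a mean of 7.77 genes, and PLT mouse 1 lowest, with 4.24.

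Cell cycle genes were uneven over the mice. The summed mean RPKM of 16 S phase genes was 1103 and 867 in the MUL pair, 1286 and 1617 in the PEM pair, and 703 and 1547 in the PLT pair. At least 3 of them reached 1 RPKM in 38.7% of the cells of PLT mouse 1 and 82.1% of those of PLT mouse 2. As for the Sm and snRNP sum, both PEM mice were above both MUL mice and the PLT mice lay far apart, although the S phase sum was lowest in PLT mouse 1 and highest in PEM mouse 2. The sum of 16 G2 and M phase genes was 341 and 358, 174 and 474, and 163 and 484, with PEM mouse 1 below both MUL mice. Without the cells that held at least 3 G2 and M phase genes, the Sm and snRNP medians were 0.85 in PLT minus MUL, 0.50 in PEM minus MUL and -0.13 in PLT minus PEM. The part of S phase genes in the Sm values was not tested. The summed level of 12 megakaryocyte and platelet genes, several of which HSCs also express, was 428 and 451 RPKM in MUL, 898 and 1695 in PEM, and 377 and 785 in PLT mice, and its part was not tested. The gate should not hold neutrophils. Their 12 markers summed to 261 and 1391 RPKM in the MUL pair and 401 and 15160 in the PEM pair. In the PLT pair the sums were 3152 and 216, and Elane and Mpo were at 0 in all mice. PEM mouse 2 was also highest for macrophage and monocyte (1381 RPKM), mature erythroid (489) and B cell (331) markers. T and NK cell markers were highest in MUL mouse 1 (222). Without cells holding at least 3 markers of 1 of these lists, 18 of 25 cells of PEM mouse 2 remained. In the other mice 74 of 78 and 75 of 85 (MUL), 86 of 93 (PEM mouse 1), and 79 of 93 and 76 of 84 (PLT) remained. Immediate-early genes, which cell handling can raise, summed to 454 and 629, 187 and 120, and 143 and 68.6, with both MUL mice above the others, and their part was not tested.

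Other genes of the splicing machinery, taken from 7 lists with 125 genes of which 119 were tested, gave no call in any comparison (limma). At an unadjusted p under 0.05, 4 of the 119 were higher and 2 lower in PLT minus MUL, where 2.44% and 5.96% of all genes were. In PEM minus MUL 0 were higher and 2 lower, against 2.8% and 2.79% of all genes. In PLT minus PEM 3 were higher and 2 lower, against 2.49% and 5.88%. The list of LSm proteins, not all of which belong to the ring around U6 RNA, had 7 of 9 tested genes positive in PLT minus MUL (median 0.21). In PEM minus MUL 6 of 9 were positive (0.39). Of all genes, 41.6% were positive in PLT minus MUL and 47.6% in PEM minus MUL. Lsm7 was 363 and 239 RPKM in the MUL pair, 434 and 413 in the PEM pair, and 579 and 754 in the PLT pair (PLT minus MUL 1.17 ± 0.32, p = 0.00637, adjusted p = 0.480), with both PLT mice above the other 4, as for Snrpd2. Lsm2 was 47.7 and 26.1, then 74.5 and 67.3, then 66.1 and 104 RPKM.

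Of 16 genes of SR protein kinases and SR-related factors none was called. In PLT minus MUL 13 were negative (median -0.28), in PEM minus MUL 10 (-0.21) and in PLT minus PEM 8 (-0.048). Of all genes, 41.6%, 47.6% and 43.6% were positive in the same order of comparisons. Clk1, a kinase that phosphorylates SR proteins, was 357 and 264 RPKM in the MUL pair, 172 and 134 in the PEM pair, and 337 and 189 in the PLT pair (PEM minus MUL -1.01 ± 0.38, limma, p = 0.0291, adjusted p = 0.868). Prpf38a, a protein of the tri-snRNP on its way to activation, had the low PEM levels of Srsf2, with 23.3 and 28.4 RPKM against 98.6 and 60.9 in the MUL pair and 72.8 and 128 in the PLT pair (PLT minus PEM 1.87 ± 0.47, p = 0.00366, adjusted p = 0.539). Ddx5, an RNA helicase, was 707 and 820 RPKM in the MUL pair, 649 and 814 in the PEM pair, and 290 and 425 in the PLT pair (PLT minus MUL -1.11 ± 0.31, p = 0.00652, adjusted p = 0.480). For the branch point partners of U2 the median was -0.42 in PLT minus MUL and 0.02 in PEM minus MUL. The lists of the Prp19 complex and helicases, the exon junction complex, U1, U5 and tri-snRNP proteins, and other splicing regulators had medians of -0.08, 0.26, -0.12 and -0.34 in PLT minus MUL.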

How the data were processed

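Expression was deposited by the authors as RPKM values for 22645 gene symbols in 458 single cells. Mapped reads and detected genes of each cell are counts from the authors' second deposited table, which also holds the mitochondrial percent (per the file headers). TopHat, featureCounts and build mm10 are named in the submitters' processing notes, and their versions, and the lengths and read totals used for RPKM, are not given in the sources used here. The SMARTer Ultra Low RNA kit used, per the labels' protocols, keeps no molecular identifiers, so intervals and floors cover counting error only. No cell was left out, cells sorted into plates were not screened for doublets, and no cells had identical values. The prefix of a cell's title was taken as its mouse and matched the deposited mouse names in all 458 cells.

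Each mouse was represented by the mean RPKM of its cells, since cells are not replicates. The 6 means were tested as log2(mean RPKM + 1) with limma 3.58.1 in R 4.3.3 (1 mean per group, eBayes with an intensity trend). The 11337 genes with at least 1 RPKM in at least 2 mice entered, with Benjamini-Hochberg adjustment over all of them and a threshold of 0.05. The p-values measure only the spread between the mice within a group, with 3 residual and 8.33 total degrees of freedom. Shares have exact Clopper-Pearson 95% intervals. Positions, exon overlaps and near-identical transcripts (at least 95% identity over 300 bases) came from GENCODE M21 on mm10, in which all 52 symbols matched.

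The members, gene lists and tests were chosen with earlier results of these data known. Named genes were 10 members and Hnrpll kept whatever their value, the 2 highest of each class, and the 2 with the smallest p in each class and comparison; the other members described were chosen after their values were seen. Up to 3 genes with the smallest p were named from each list of other splicing genes. Alternatives were pseudocounts of 0.1 and 10, no filter and a filter of 10 RPKM, means over cells of log2(RPKM + 1), quantile and median-ratio scaling, subsets of cells, 25 cells per mouse, no variance trend, fits of 2 groups alone, and leaving out each mouse. Python 3.11.15, pandas 2.3.3 and scipy 1.17.1 were used.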

Additional observations from a re-analysis of the deposited data

How the results depend on the processing

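For the genes named by rule, 24 log2 fold changes were recomputed under up to 19 alternative settings. All 454 values had the direction of the main fit. Several settings, such as the filters, the variance trend and fits of 2 groups alone, leave a fold change as it is. The 24 were also picked for small p in these data, so the shared direction was largely fixed in advance. The count of genes called in PLT minus MUL, 1 in the main fit, was 2 with a pseudocount of 10, 19 with no filter, 8 with a filter of 10 RPKM, 4 after quantile normalization, and 2 without cells holding mature-cell markers. It was also 2 without cells holding at least 3 G2 and M phase genes, an alternative chosen after seeing the data. It was 0 with a pseudocount of 0.1, with means over cells of log2(RPKM + 1), in cells with 1800 to 3000 detected genes, with 25 cells per mouse, with no variance trend and with only the groups compared, and 0 to 1 when a mouse was left out. In PEM minus MUL it was 9 with no filter, 1 with a filter of 10 RPKM and 1 without mature-cell markers. In PLT minus PEM it was 4 with no filter. No splicing gene was called in the main fit or under any of these settings.

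The median log2 fold change of the splicing genes was 0.49 in PEM minus MUL and -0.39 in PLT minus PEM with means of log2(RPKM + 1), and -0.19 and 0.35 in cells with 1800 to 3000 detected genes. In PLT minus PEM it was -0.24 to 0.24 when a mouse was left out. With means of log2(RPKM + 1), class medians changed sign for hnRNP genes in PLT minus MUL (0.078), for SR and hnRNP genes in PEM minus MUL (0.37 and 0.28) and in PLT minus PEM (-0.37 and -0.16). The hnRNP median in PLT minus MUL was 0.045 under median-ratio scaling. The SF3/U2AF median became 0.053 (quantile) and 0.070 (median-ratio) in PLT minus MUL, -0.087 in PEM minus MUL with a filter of 10 RPKM, and 0.11 in PLT minus PEM under median-ratio scaling. When a mouse was left out, the Sm and snRNP median ran from -0.14 (without PLT mouse 2) to 1.40 (without PLT mouse 1) in PLT minus MUL and from -0.73 to 0.68 (the same mice) in PLT minus PEM. The SR median in PLT minus MUL ran from -0.081 without PLT mouse 2 to 0.35 without PLT mouse 1. The SR median ran from -0.13 to 0.61 and the hnRNP median from -0.076 to 0.17 in PLT minus PEM, the lowest without PLT mouse 2 and without PEM mouse 2. The SF3/U2AF median in PLT minus MUL ran from -0.19 without PLT mouse 1 to 0.11 without PLT mouse 2. The cause was not tested.

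The median share of cells over the splicing genes was 75.4%, 82.1% and 77.7% in MUL, PEM and PLT when every value above 0 was counted. It was 32.8% in MUL at 10 RPKM or more, and 34.5% in MUL and 36.9% in PEM in cells with 1800 to 3000 detected genes. No paired analysis was possible because the numbers of the mice follow accession order and link no mouse to another group's. Depth limits the shares: many values lay above 0 and under 1 RPKM, and a value of 0 in a cell does not show that the transcript was absent.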
